A study of Mus musculus with 3 samples.

Results

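The population described here is a set of cells chosen as stroma from the mouse fetal ovary at embryonic day 16.5. Stroma is the loose mesenchyme that lies between and around the cords of germ cells and pregranulosa cells. Where the chosen cells lay was not measured, and a few carried RNA of other cell types, as given below. The population holds 99 of the 456 cells kept from the embryonic library, 21.7% (exact 95% binomial interval 18.0 to 25.8%), and 99 of the 1548 cells kept in the whole series. Members were chosen from their own RNA: the summed level of Ptn, Dlk1, Ncam1 and Slit2 had to reach 10 UMIs per 10000 UMIs of the cell (CP10K). In addition Gng13, Fst and Cma1 together stayed under 3 CP10K, Cldn5 and Cdh5 under 2 CP10K, Sycp1, Syce2, Syce3, Dazl and Taf7l under 10 CP10K, and adult alpha and beta haemoglobin under 10% of UMIs. A UMI is the random tag that marks 1 captured mRNA molecule, so UMIs and not reads were counted. Because the cells were picked by their expression, every difference below between them and other cells of their own library is a description of the chosen cells and carries no test.

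The series holds 3 libraries of whole ovaries of C57BL/6 female mice, dissociated in collagenase, strained at 40 μm and captured as single cells with a droplet kit that reads the 3′ ends of mRNA. The ages are embryonic day 16.5, given as day 17 in the sample's title, postnatal day 7 and postnatal day 14. The ovaries are described as wild type, no agent was given at any age, and the number of animals behind a library was not stated. Each age is 1 library, so no difference has a replicate check and all intervals below cover counting error only. The 99 members summed to 1817754 UMIs, with 7114 in the lowest, 12812 in the median and 80470 in the highest cell, and 2430, 3772 and 9837 detected genes in the lowest, median and highest cell. Levels are the summed UMIs of a group of cells scaled to 1000000 UMIs (CPM) with exact Poisson 95% intervals, and a gene with no UMI in the members may have been present at up to 1.65 CPM, the level of 3 UMIs and the one-sided 95% limit of a count of 0. No cell barcode was shared between libraries.

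Fetal ovarian stroma arises from mesenchyme of the gonadal ridge and of the adjoining mesonephros. In the mouse it carries nerves and vessels into the gonad, deposits collagen around the germ cell cords, and later supplies the theca, the steroid-producing cell layer around growing follicles. WNT, Hedgehog, PDGF and TGF-β signals are known to pass between such mesenchyme and neighbouring epithelia. Pleiotrophin (Ptn) is a heparin-binding growth factor, Dlk1 an imprinted membrane protein related to Notch ligands, Ncam1 a cell adhesion molecule of neurons and mesenchyme, and Slit2 a secreted guidance cue that binds Robo receptors.

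The 4 genes that chose the cells were unevenly shared among them. The summed level was 11.2 CP10K in the lowest, 24.0 in the median and 73.6 in the highest member. Ptn was found in 97 of 99 members at 0, 10.9 and 33.2 CP10K in the lowest, median and highest cell, and at 1010 CPM (964 to 1057) in their sum. Dlk1 was found in 96 members at 0, 7.83 and 53.3 CP10K, Ncam1 in 93 at a median of 3.12 CP10K, and Slit2 in 67 at 0, 0.9 and 5.56 CP10K. The summed levels of these 3 genes were 908, 370 and 132 CPM. The 3 members nearest the limit had sums of 11.2, 11.8 and 12.2 CP10K, and the 3 nearest cells outside it 8.07, 7.82 and 5.77 CP10K, so the limit fell in a gap. Of the genes that excluded cells, Gng13, Fst and Cma1 were all at 0 in 68 members, Cldn5 and Cdh5 in 89, and the 5 germ cell genes in 46.

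**Figure D1:**
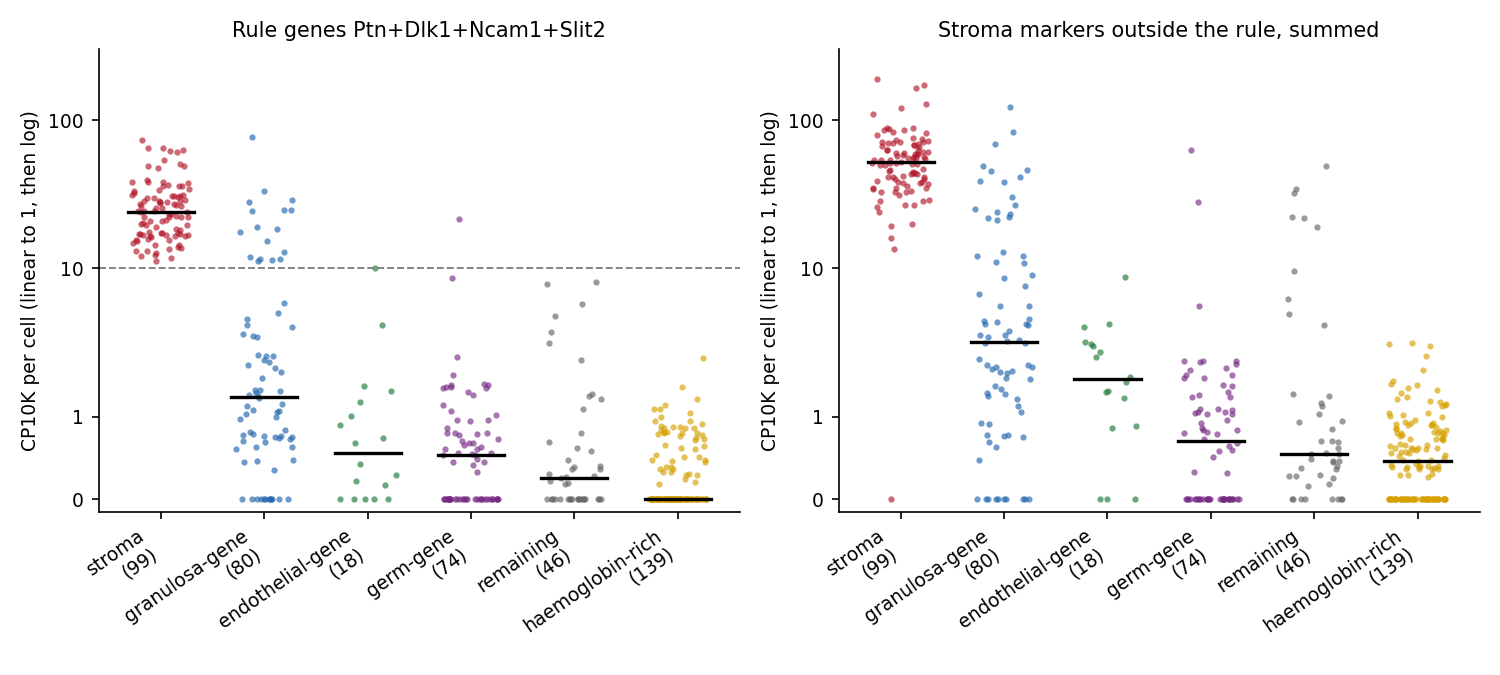
Each point is 1 cell of the embryonic library, placed by class; the left axis panel gives the summed level of the 4 genes of the rule and the right one that of 14 stromal markers the rule did not use, both in CP10K on an axis that is linear up to 1 and logarithmic above, with black bars at the medians. The dashed line marks 10 CP10K; the members' median over the 14 other markers was 52.4 CP10K, and some granulosa-gene cells reached the members' range in both panels.

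The label was set beside 14 stromal markers that the rule did not use. Tgfb2 and Wnt5a among them were given as markers of this population. Gene lists were written with earlier results of these data known, so this is no independent check. All 14 (Tgfb2, Wnt5a, Pdgfra, Pdgfrb, Tcf21, Nr2f1, Nr2f2, Col1a1, Col1a2, Col3a1, Dcn, Lum, Mfap4 and Ogn) had their highest summed level in the members among the 6 classes of embryonic cells. The classes followed from the limits above: members, 80 granulosa-gene cells, 18 endothelial-gene cells, 74 germ-gene cells, 139 haemoglobin-rich cells and 46 remaining cells. The 14 markers summed to 5686 CPM in members, 1361 in granulosa-gene cells and 59.8 to 327 in the other 4 classes. Over single members the sum ran from 0 through a median of 52.4 to 189 CP10K, so at least 1 member lacked all of them.

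Markers of other cell types were low in the members, with a few exceptions that are given here for the results below. Endothelial markers summed to 69.9 CPM in members and 4232 in endothelial-gene cells, germ cell markers to 127 and 5811 in germ-gene cells, and surface epithelium markers to 38.0 and 379 in granulosa-gene cells. Over single members the surface epithelium sum was 0 in the median cell but 26.6 CP10K in the highest, so such RNA was not absent from every member. Pregranulosa markers summed to 285 CPM in members, of which Wnt4 gave 180, and to 2893 in granulosa-gene cells. Steroidogenic markers summed to 32.5 CPM, of which the lipoprotein receptor Scarb1 gave 29.7, while the steroidogenic enzymes Cyp11a1 and Cyp17a1, the receptor Lhcgr and the hormone Insl3 had 0 UMIs. Neural and Schwann cell markers summed to 171 CPM, and 8 of these 12 markers, including the defining Sox10 and Foxd3, had 0 UMIs. Mesonephric epithelium markers summed to 8.80 CPM, with 4 of 8 at 0. Erythroid markers summed to 6419 CPM in members and to between 5803 and 6161 CPM in the granulosa-gene, germ-gene and endothelial-gene cells.

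A pair of members carried immune RNA. In a member of 22242 UMIs the immune markers summed to 46.3 CP10K, the T cell receptor constant genes Trbc1 and Trbc2 had 51 and 41 UMIs, and Col1a1, Col1a2, Col3a1, Mfap4, Dcn and Ptn had 0; its 34 UMIs of Dlk1 alone placed it in the population. In a member of 66597 UMIs the sum was 7.51 CP10K, with 171 of the 206 UMIs of the neutrophil gene S100a8 in all members, beside 88 UMIs of Col1a1. The next member stood at 1.24 CP10K. Without this pair 560 genes in place of 550 were called higher against the other cells in the comparison below, and 809 in place of 775 lower.

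Some granulosa-gene cells carried stromal RNA, and they are among both sets of cells that the members are compared with below. Of the 80, 17 also reached 10 CP10K of the 4 genes that chose the members; these had a median of 21162 UMIs, against 14163 in the other 63. Tcf21 stood at 377 CPM in members, 6.53 in the 63 cells and 133 in the 17, Col1a1 at 1064.5, 33.5 and 878, Acta2 at 353, 9.79 and 75.8, and Fst at 17.1, 1089 and 573. Whether the 17 are doublets or cells of a mixed state was not tested. Where leaving them out moved a fold by more than 1.5 times, the fold without them follows it. Of the 550 genes called higher against the other cells with them included, 142 had a fold more than 1.5 times as high without them, and 651 genes were then called higher.

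Acta2 and Tcf21 led the genes higher in the members than in the other cells, ranked by the ratio of CPM + 10. Without the 17 mixed cells Col1a1 and Ptn led in their place, with Sfrp1 and Mfap4 next, and Tcf21 and Acta2 ranked 5 and 9. Folds are plain ratios of CPM with exact conditional binomial 95% intervals. The comparison set the members against the other 218 cells of the library, 4587945 UMIs, leaving out the haemoglobin-rich cells, whose haemoglobin dilutes every other gene. Tcf21, a basic helix-loop-helix transcription factor of visceral and gonadal mesenchyme, was found in 93 of 99 members at 0, 3.17 and 25.4 CP10K in the lowest, median and highest cell. Its summed level was 377 CPM (350 to 407), against 38.8 in granulosa-gene, 16.7 in remaining and 4.99 in germ-gene cells, and 18.8-fold that of the other cells (15.1 to 23.7), or 43.7-fold without the 17 (31.2 to 62.9). Acta2, the smooth muscle α-actin also made by contractile fibroblasts, was found in 70 members at 0, 1.66 and 33.9 CP10K and summed to 353 CPM (326 to 381), 20.2-fold the other cells (16.0 to 25.8), or 30.6-fold without the 17 (22.8 to 41.9). After every cell was thinned to 5000 UMIs, Tcf21 was seen in 80.8% of members, in 11.3% of granulosa-gene cells and in 0 of 74 germ-gene cells, which lack it and show the background of free RNA; the 95% upper bound there was 4.86%. Acta2 was seen in 56.6%, 6.25% and 2.70% of the same thinned cells, and unthinned in 70.7% of members. Of the 10 smooth muscle and pericyte markers, Acta2 and 4 others were highest in the members among the 6 classes, at low levels: Des was at 32.5 CPM, Notch3 at 31.4, Myh11 at 11.0 and Cnn1 at 3.85. Kcnj8 and Rgs5, markers of pericytes, stood at 17.1 and 4.4 CPM in members, below the 26.1 of endothelial-gene cells and the 8.35 of remaining cells, and Actg2 had 0 UMIs.

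The promoters of these 2 genes are shown because they led the comparison with all cells included and because their products belong to different programmes, contraction and mesenchymal transcription. Each is the RefSeq window of GRCm38.p6 from 250 bases before to 50 bases after the gene's start, on the minus strand. In the Acta2 window, chr19:34255324-34255623, capitals mark the matches to a CArG-like box, the letters CC, 6 bases of which at most 1 is not A or T, then GG; the textbook CArG box binds serum response factor.

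Acta2: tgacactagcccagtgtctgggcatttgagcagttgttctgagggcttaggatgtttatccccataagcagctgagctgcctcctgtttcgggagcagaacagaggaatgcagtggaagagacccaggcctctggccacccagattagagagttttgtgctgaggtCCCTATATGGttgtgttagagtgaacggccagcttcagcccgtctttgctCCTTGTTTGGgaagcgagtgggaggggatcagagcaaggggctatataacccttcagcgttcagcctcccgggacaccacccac
Tcf21: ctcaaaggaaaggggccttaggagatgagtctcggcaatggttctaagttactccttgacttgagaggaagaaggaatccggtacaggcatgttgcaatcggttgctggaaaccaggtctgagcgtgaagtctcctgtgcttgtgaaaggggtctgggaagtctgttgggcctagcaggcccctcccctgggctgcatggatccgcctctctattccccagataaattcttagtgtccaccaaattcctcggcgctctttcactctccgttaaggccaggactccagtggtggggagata

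The matches in Acta2 began 84 and 34 bases before the start. Searched the same way on both strands, 9.98% of the 32851 windows of the RefSeq table held at least 1 such match and 0.822% held at least 2. Of 6 other genes of the contractile apparatus, Cnn2 had a match in its window and Csrp1, Mylk, Tpm2, Cnn1 and Des had none. The Acta2 window also held 3 E boxes (CANNTG, the letters that basic helix-loop-helix factors bind), none overlapping a capital stretch, and the Tcf21 window (chr10:22820094-22820393) held none; 72.3% of all windows held at least 1. A match in letters does not show binding. In GENCODE M21 on GRCm38, Acta2 spans chr19:34241090-34255590 and Tcf21 chr10:22817281-22820174, both on the minus strand, and Tcf21 overlaps Gm10824 on the opposite strand.

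Genes of the interstitial matrix were higher in the members as a group. A gene was called when its CPM + 10 differed at least 2-fold, among 13036 genes with at least 20 UMIs; 550 genes were called higher in the members and 775 lower, 4.22% and 5.95% of those compared. Of the 42 interstitial matrix genes 41 could be compared, 28 were called higher and 0 lower. Their median log2 ratio was 1.73, where that of all genes was -0.15. The fibrillar collagens were called in 5 of 5 cases and the elastic fibre genes in 8 of 10. Col1a1, the main chain of type I collagen, was found in 97 members at 0, 9.56 and 49.0 CP10K, at 1064.5 CPM against 250 in granulosa-gene cells, 9.75-fold the other cells, or 34.1-fold without the 17 mixed cells. Col1a2 was 9.11-fold and Col3a1 6.21-fold the other cells, or 23.9-fold and 12.6-fold without them.

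Mfap4, a microfibril-associated protein of elastic fibres, was 12.5-fold the other cells, 30.3-fold without the 17 mixed cells, and was found in 96 members at 0, 7.04 and 44.5 CP10K. Bgn (biglycan), a small leucine-rich proteoglycan, stood at 627 CPM and 11.1-fold, and its relative Dcn (decorin) at 501 CPM and 10.5-fold, or 18.1-fold and 27.5-fold without them. Loxl1, which crosslinks elastin, was 12.6-fold, 23.6-fold without them, and elastin itself (Eln) was at 222 CPM against 64.3 in granulosa-gene cells. The gelatinase Mmp2, which cuts matrix, was at 356 CPM and 11.4-fold the other cells, and Islr, a secreted protein of mesenchymal cells, at 268 CPM and 12.2-fold, or 24.3-fold and 18.6-fold without them. Sparc, a collagen-binding protein with the highest level of the list, was present in every member at 1.35, 16.0 and 46.1 CP10K but only 2.59-fold the other cells. Fbn2, a fibrillin of embryonic microfibrils, was lower in members than in granulosa-gene cells at 101 against 218 CPM, and the thrombospondin Thbs2 was at 13.8 against 78.9 CPM. Lum (lumican) was found in 40 members only, at up to 18.2 CP10K.

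Basement membrane genes did not share that pattern. Of 16 compared, 3 were called higher and 1 lower, and the median log2 ratio was 0.18. Nid1, which links laminin to collagen IV, was at 95.2 CPM, 2.99-fold the other cells. The laminin chain Lama2, known from muscle and mesenchyme, was at 25.9 CPM and 16.9-fold, or 53.9-fold without the 17 mixed cells. It had 47 UMIs in members and only 7 in all the other cells, so both folds are imprecise. Col18a1, the source of endostatin, was at 12.1 CPM in members, 84.4 in granulosa-gene cells and 329 in endothelial-gene cells, and the collagen IV chain Col4a1 was at 64.4 CPM in members and 749 in endothelial-gene cells.

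**Figure D2:**
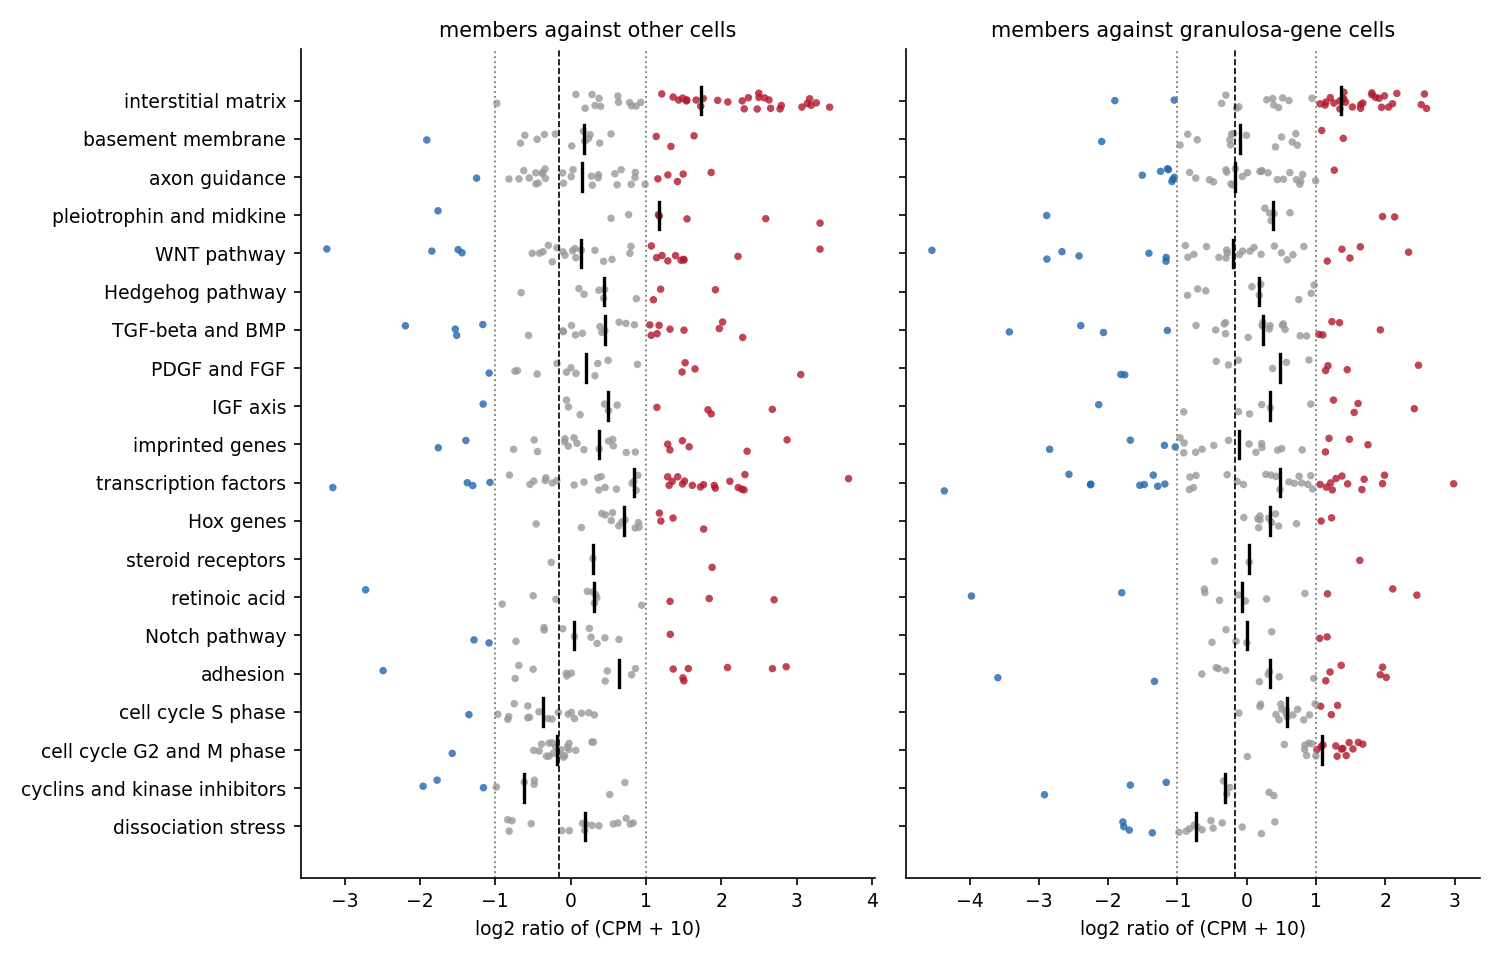
Log2 ratios of CPM + 10 in the members over the other cells (left) and over granulosa-gene cells (right), 1 point per gene, grouped by gene list; red points lie at 1 or more, blue at -1 or less, black bars are list medians and the dashed line is the median of all genes. Interstitial matrix genes sit to the right in both panels with medians of 1.73 and 1.37, while the 20 genes of the G2 and M phases have medians of -0.18 and 1.09.

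Mesenchymal transcription factors were higher and gonadal ones were not. Of 47 listed factors 39 could be compared, and 17 were called higher and 4 lower, and the median log2 ratio was 0.84. By role these were 15 higher and 1 lower of 24 mesenchymal factors, 0 higher and 3 lower of 11 gonadal factors, and 2 higher of 4 factors of interstitial progenitors. Nr2f2 (COUP-TFII), an orphan nuclear receptor of mesenchyme, was in 84 members and at 273 CPM, 5.75-fold the other cells, or 8.9-fold without the 17 mixed cells. Maf, in mouse gonads a factor of interstitial cells, was in 86 members at 0, 2.28 and 7.6 CP10K and at 288 CPM, 5.76-fold. The homeobox factor Meis1 was at 150 CPM and 6.48-fold, Prrx1 at 64.4 CPM and 8.95-fold, and Osr1 at 49.0 CPM and 18.7-fold, or 29.1-fold without them.

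The gonadal factors were present in members at lower levels than in granulosa-gene cells. Wt1, needed for gonads to form, was in 90 members at 286 CPM, against 493 in granulosa-gene cells, and Gata4, its partner in early gonads, was in 74 at 102 CPM against 189. Foxl2, which maintains granulosa cells, was in 22 members at 30.3 CPM against 182. Nr5a1, the nuclear receptor that drives steroidogenic genes, was at 20.4 against 58.9 CPM, Emx2 at 61.6 against 172, Klf4 at 66.0 against 440, and Irx3, a homeobox gene of pregranulosa cells, at 5.50 against 309 in only 7 members.

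Hox genes, whose combination marks position along the body axis, were mostly too rare to compare. Of 39 listed, 16 could be compared, 4 were called higher and 0 lower, with a median of 0.70, and 7 were higher when ratios were centred on the median gene. Hoxd9 was found in 67 members and at 102 CPM, 4.45-fold the other cells, and Hoxd10 at 34.7 CPM and 4.68-fold. Hoxc8 was at 59.4 CPM and Hoxc6 at 45.7 CPM. Hoxb7 was not called, at 2.20 CPM in members and 47.4 in endothelial-gene cells.

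WNT genes were split between members and granulosa-gene cells. Of 31 compared, 10 were called higher and 4 lower in members against the other cells. Among ligands, Wnt5a, which acts mainly without β-catenin, was found in 65 members at 0, 0.799 and 4.04 CP10K and at 101 CPM, 7.33-fold the other cells (5.48 to 9.92), or 14.0-fold without the 17 mixed cells; thinned, it was in 36.4% of members, 5.00% of granulosa-gene cells and 2.70% of germ-gene cells. Wnt6 was at 13.8 CPM in members and 544 in granulosa-gene cells, and Wnt4, which promotes ovarian fate, was at 180 against 242 CPM and present in 70 members. The WNT inhibitor Sfrp1 had the highest level of the list, found in 88 members at 0, 4.63 and 24.1 CP10K and at 571 CPM, 11.7-fold the other cells (10.2 to 13.6), or 36.6-fold without the 17. The ovarian WNT activator Rspo1 was at 29.7 against 242 CPM in granulosa-gene cells, its receptor Lgr5 at 3.85 against 92.2, and the β-catenin target Axin2 at 20.9 against 72.2. Another feedback inhibitor, Nkd1, was at 163 CPM in members and 140 in granulosa-gene cells.

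TGF-β and BMP genes gave 9 called higher and 4 lower of 25 against the other cells. Tgfb2, a secreted ligand, was in 67 members at 0, 0.9 and 6.38 CP10K and at 118 CPM, 7.24-fold the other cells. Fstl1, a secreted binder of BMPs, was in 98 members at 400 CPM, and Id2, a target of BMP signals, was at 883 CPM and 4.06-fold. Inhba, the activin subunit, was at 21.5 CPM and 19.7-fold, or 29.8-fold without the 17 mixed cells. On the low side, Bmp2 was found in 1 member at 0.55 CPM against 45.5 in granulosa-gene cells, and Amhr2, the receptor for anti-Müllerian hormone, was at 12.1 against 228 CPM.

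Hedgehog target genes had few UMIs in the fetal stroma. Of 10 compared, 3 were called higher and 0 lower. Gas1, a co-receptor, was in 87 members at 294 CPM and 4.19-fold the other cells. The transcription factor Gli2 was at 20.4 CPM and 6.23-fold, or 12.1-fold without the 17 mixed cells. Gli1, itself a target of the pathway, was in 12 members at 9.90 CPM, against 0.872 CPM from 4 UMIs in the other cells. Ptch1, the receptor and a further target, went the other way, in 17 members at 12.7 CPM against 30.9 in granulosa-gene cells. The target Hhip had 0 UMIs in members, which allows up to 1.65 CPM.

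Both PDGF receptors were higher in the members. Of 16 PDGF and FGF genes compared, 4 were called higher and 1 lower. Pdgfra was in 73 members at 0, 1.25 and 8.30 CP10K, at 174 CPM and 14.3-fold the other cells, or 25.9-fold without the 17 mixed cells; thinned, it was in 52.5% of members, 6.25% of granulosa-gene and 4.05% of germ-gene cells. Pdgfrb was in 41 members at 63.8 CPM and 4.72-fold. The ligand Pdgfa was at 12.7 CPM in members and 66.8 in granulosa-gene cells, and Pdgfb had 0 UMIs in members. Fgfr1 was at 103 CPM, and Fgfr2 at 27.0 against 120 in granulosa-gene cells.

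Among 13 compared genes of retinoic acid handling, 3 were called higher and 1 lower. Crabp1, which binds retinoic acid, was in 41 members at 67.1 CPM and 5.81-fold the other cells. The retinol uptake receptor Stra6 was at 23.1 CPM and 7.07-fold. The enzymes that make retinoic acid, Aldh1a1 and Aldh1a2, were at 14.9 and 13.2 CPM in members and at 380 and 71.0 CPM in granulosa-gene cells. Of 13 Notch genes 1 was called higher, the receptor Notch3 at 31.4 CPM in 30 members and 4.8-fold the other cells, and 2 were called lower, Mfng and Nrarp, both at 1.10 CPM in members and at 166 and 90.0 CPM in endothelial-gene cells. The ligand Jag2 had 0 UMIs.

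**Figure D3:**
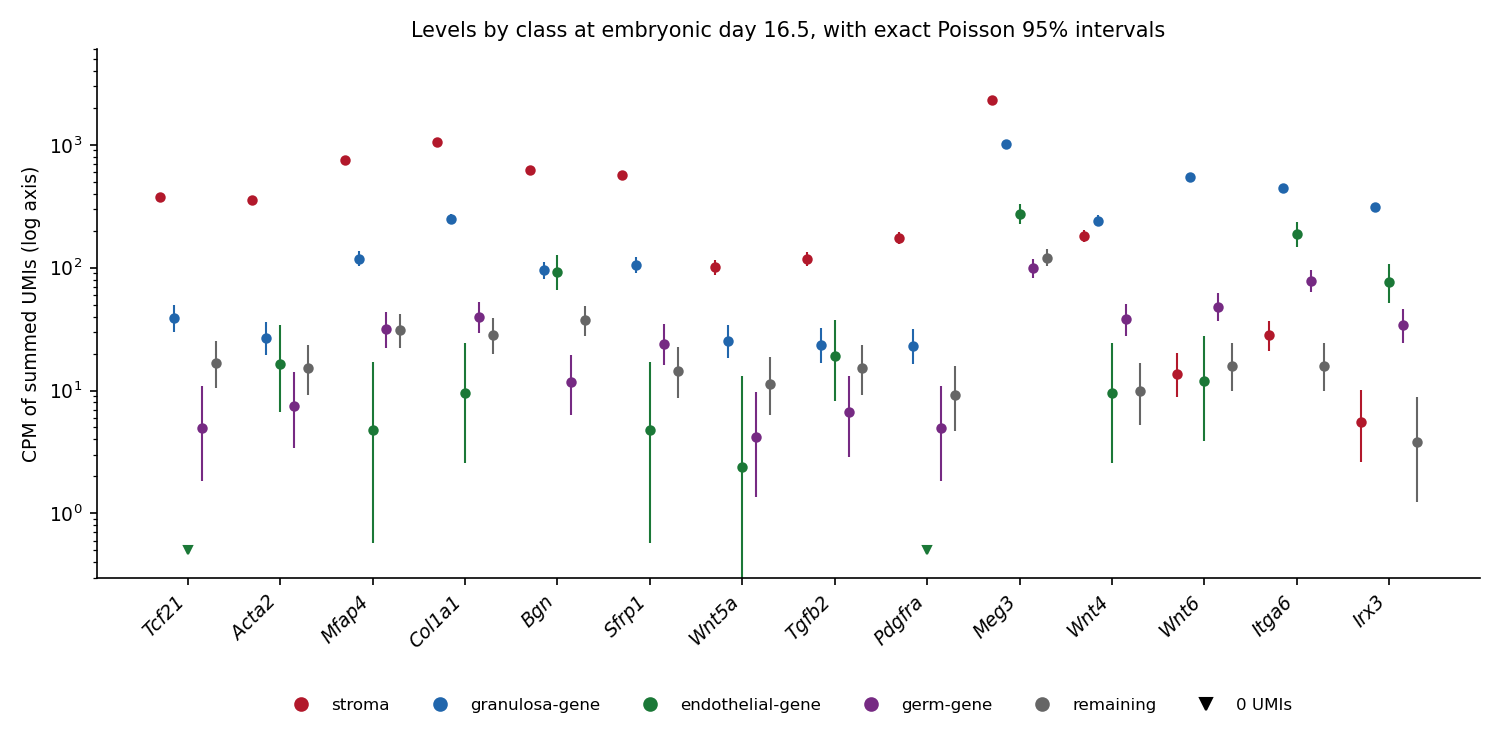
Summed level in CPM (logarithmic axis) of 14 genes in 5 classes of embryonic cells (haemoglobin-rich cells are not drawn), with exact Poisson 95% intervals; triangles at 0.5 mark 0 UMIs. Tcf21, Acta2 and the matrix genes stand highest in the members, and Wnt4, Wnt6, Itga6 and Irx3 in granulosa-gene cells.

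Binding proteins of insulin-like growth factors and imprinted transcripts were abundant. Of 11 genes of the IGF axis, 4 were called higher and 1 lower than in the other cells. Igfbp5 was in 95 members at 0, 13.6 and 42.6 CP10K, at 1478 CPM and 6.64-fold the other cells, or 11.4-fold without the 17 mixed cells, and Igfbp4 was at 893 CPM and 3.75-fold. Igfbp2 was the reverse, at 31.9 CPM against 174 in granulosa-gene cells. The growth factor Igf2 was at 28.6 CPM, but its gene lies within Gm49394 on the same strand, and the loss of shared reads was not tested. Of 23 imprinted genes compared, which include Dlk1, 6 were called higher and 2 lower. The noncoding RNA Meg3 was in 95 members at 0, 20.7 and 149 CP10K and at 2311 CPM, 5.16-fold the other cells, or 8.05-fold without the 17, and Rian, from the same imprinted cluster, was at 162 CPM. H19, another imprinted noncoding RNA, was in every member at 2.45, 14.1 and 39.3 CP10K, with 1648 CPM in members and 2754 in granulosa-gene cells. The cell cycle inhibitor Cdkn1c, which is imprinted, was at 404 against 1316 CPM, and Peg10 at 25.9 against 248.

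Among axon guidance genes, a list that includes the rule gene Slit2, 5 of 32 compared were called higher and 1 lower, with a median of 0.15. The number higher was 8 after centring on the median gene and also 8 without the 17 mixed cells. The Slit receptor Robo2 was in 33 members at 34.1 CPM and 6.02-fold the other cells. Efnb1, an ephrin with the highest level of the list, was in 80 members at 139 CPM but at 118 in granulosa-gene cells. The semaphorin receptor Plxnd1 was at 9.90 CPM in members and 341 in endothelial-gene cells. Of 8 genes of the pleiotrophin and midkine system, which includes Ptn itself, 5 were called higher: Mdk (midkine) was in every member at 2.70, 14.6 and 28.1 CP10K, at 1393 CPM and 6.24-fold the other cells, while the syndecan Sdc4 was at 21.5 against 223 CPM in granulosa-gene cells.

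Of 18 adhesion genes, which include Ncam1, 7 were called higher and 1 lower. Cdh11, the cadherin of mesenchyme, was in 81 members at 168 CPM and 9.42-fold, or 19.5-fold without the 17 mixed cells, and Cadm1 was at 109 CPM and 6.02-fold. Itga6, the laminin receptor of epithelial cells, was at 28.1 CPM against 449 in granulosa-gene cells.

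The genes lowest in the members against the other cells were those of meiosis. Smc1b, a meiotic cohesin, was at 17.6 CPM in members and 1844 in germ-gene cells, and Sycp3, of the synaptonemal complex, at 16.5 and 1358. Tex12, Tex101 and Stra8 were at 9.90, 15.4 and 4.95 CPM in members and 803, 799 and 606 in germ-gene cells. Dazl, Sycp1 and Taf7l also ranked here but were part of the rule. Gstm6 and Wnt6 ranked low because of granulosa-gene cells, where they stood at 438 and 544 CPM.

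The members were also set against the 80 granulosa-gene cells, other somatic cells of the library, which hold 1647871 UMIs. Against them 381 genes were called higher in the members and 938 lower of 11142 compared, 3.42% and 8.42%, and 549 and 637 when ratios were centred on the median gene. Such a split also moved with the scaling against the other cells, from 41.5% of calls higher to 56.7% after centring and 61.3% with haemoglobin-rich cells included. The median log2 ratio of all genes was -0.17 against granulosa-gene cells. Acta2 and Tcf21 led by the ratio of CPM + 10, at 13.2-fold (9.72 to 18.4) and 9.72-fold (7.51 to 12.8). Against the 63 cells under the rule sum Mfap4, Sfrp1 and Col1a1 led at 41.8-fold, 46.7-fold and 31.8-fold, with Tcf21 ranked 4 at 57.8-fold (29.2 to 134) and Acta2 ranked 7 at 36.0-fold (20.5 to 70.1). There 548 genes were higher and 1076 lower in members, and axon guidance genes changed from 1 higher and 7 lower to 6 higher and 4 lower. The actin-binding calponin Cnn2 was at 216 against 23.1 CPM, 9.38-fold or 17.7-fold without the 17, Sparcl1, a relative of Sparc, at 438 against 62.5, 7.01-fold or 25.6-fold without them, and Igfbp7 at 151 CPM, below the 1272 of endothelial-gene cells. Interstitial matrix genes gave 27 higher and 2 lower of 40, with a median of 1.37, and transcription factors 12 higher and 9 lower of 39.

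On the other side, Gstm6, a glutathione transferase, was at 7.15 CPM in members, and granulosa-gene cells were 61.3-fold higher. Wnt6 was 39.6-fold, Irx3 56.3-fold, Aldh1a1 25.6-fold and Itga6 16.0-fold higher in granulosa-gene cells. Smpx, Cst8, Cgn and Aard were at 2.75, 1.65, 7.70 and 8.80 CPM in members and at 169, 163, 205 and 212 CPM there; cingulin (Cgn) is a protein of epithelial tight junctions. The follistatin gene Fst, Gng13 and Cma1, which also led this side, were part of the rule.

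Oestrogen and glucocorticoid receptor genes were low in the members. Esr1, which encodes oestrogen receptor α, was at 14.9 CPM in members and 24.3 in granulosa-gene cells, with intervals of the ratio that include 1. Esr2, which encodes oestrogen receptor β, was at 0.55 CPM, and the glucocorticoid receptor Nr3c1 at 31.4. Immediate-early and heat shock genes that tissue dissociation can induce were not called against the other cells (0 of 16 in either direction). They were lower than in granulosa-gene cells in 4 of 16, and Fos stood at 1500 CPM in members and 2103 there.

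Cell division genes were higher in the summed RNA of members than in that of granulosa-gene cells. Genes of G2 and M summed to 1039 CPM against 320, with 12 of 20 called higher and 0 lower, and genes of S phase to 1014 against 613, with 3 of 18 called higher. This was not shared evenly by the members. Among the groups clustered below, G2 and M genes summed to 2270 CPM in the group of 23, which had the deepest cells. They summed to 1078 CPM in the group of 7 and to 81.7 to 240 CPM in the rest, below granulosa-gene cells. S phase genes summed to 3409 CPM in the group of 7 and to 523 to 1099 CPM in the rest. After thinning to 5000 UMIs, 27 of 99 members, 27.3% (18.8 to 37.1%), held at least 3 UMIs of the G2 and M list, against 16.3% (8.95 to 26.2%) of granulosa-gene cells, and these intervals overlap. Unthinned the shares were 46.5% and 53.8%, the reverse order, in groups whose median depths were 12812 and 15876 UMIs. For the S phase list the thinned shares were 69.7% (59.6 to 78.5%) of members and 40 of 80 granulosa-gene cells (38.6 to 61.4%), and the unthinned ones 90.9% and 96.3%. Mki67, present in dividing cells, was in 34 members at 64.4 CPM against 18.8, and Top2a, the mitotic topoisomerase, was in 33 at 129 against 41.3. Against the other cells 0 of these 38 genes were called higher and 2 lower, and the germ-gene cells stood at 331 CPM of Top2a. Of the kinase inhibitors, Cdkn1b was at 19.8 CPM in members and 215 in granulosa-gene cells, beside Cdkn1c above.

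The members were clustered alone, with the rule genes and the S phase and G2 and M lists left out of the variable genes. Cell cycle genes outside those lists were not left out. Clustering gave 6 groups of 24, 23, 20, 15, 10 and 7 cells, which are described by leading genes and not named. The group of 24 had more Nrxn3, a neurexin (73.4 CPM against 15.1 in the other members), Lum (212 against 73.1), Igfbp6 (93.7 against 33.9) and Osr1 (79.5 against 37.7). The group of 20 had more Igfbp7 (455 against 108), the protease inhibitor Serpine2 (284 against 70.8) and the calcification inhibitor Mgp (968 against 455). The group of 15 had more Gstm1 (485 against 98.6) and the chaperone Clu (153 against 32.1), with Acta2 at 567 CPM and 0 UMIs of Lum. The groups of 10 and 7 were led by immediate-early genes (Fos at 4049 against 1337 CPM, Klf2 at 578 against 69.1) and by S phase genes (Pclaf at 1448 against 188, Tk1 at 370 against 37.8). These genes defined the clusters and are no separate finding.

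The group of 23 was led by mitotic genes, Ube2c (322 against 15.2 CPM) and Cdc20 (128 against 3.59), and had the deepest cells, with a median of 23538 UMIs. It also held both members with immune RNA and all 9 members with 2 or more UMIs of Nkx2-5; in the 12 cells left without them Ube2c stood at 392 and Cdc20 at 216 CPM. At 2 other resolutions the members split into 4 and 9 groups, and with 20 principal components into 6. Of the 23 cells, 12 stayed together at the finer resolution and 22 with 20 components, and of the group of 24, 18 and 19 did.

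A few members shared Nkx2-5, Tlx1 and further genes that were lower in the other members. These cells were chosen after their values were seen. Nkx2-5 and Tlx1 encode homeobox factors known in the mouse from the mesenchyme of the spleen primordium. Nkx2-5 was found in 12 members, 9 of them with at least 2 UMIs, and Tlx1 in 8 of these 9 and in 3 of the other 90. The 9 cells had depths of 7983, 18251 and 69737 UMIs in the lowest, median and highest. Nkx2-5, by which they were chosen, stood at 265 CPM in them against 1.91 in the other 90, a difference fixed by that choice. Tlx1 stood at 129 against 3.82. The chemokine Cxcl12 stood at 350 against 55.5 CPM, its relative Cxcl13, found in 4 of the 9 cells, at 169 against 2.55, and the WNT activator Rspo3 at 117 against 0.637. The neurotrophin receptor Ntrk2 was at 209 against 7.01, Kazald1 at 410 against 8.92, the iron exporter Slc40a1 at 406 against 19.1, the integrin ligand Npnt at 185 against 2.55, and Robo2 at 133 against 18.5. Outside the members Ntrk2, Tlx1 and Rspo3 were found in 3, 5 and 8 cells of the library, whereas Cxcl12, Npnt, Kazald1 and Slc40a1 were found in 28, 54, 64 and 113.

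The 9 cells also carried stromal RNA, and their gonadal factors were near or below the levels of the other 90. Col1a1 was at 1057 CPM in them and 1066 in the other 90, and Tcf21 at 253 against 397. Wt1 was at 257 against 290 and Emx2 at 56.3 against 62.5. Gata4 was at 56.3 against 110, in 4 of the 9 cells and 70 of the 90. Nr5a1 was at 4.02 against 22.9, in 1 and 27 cells, and Lhx9 at 16.1 against 35.7, in 2 and 27 cells. Elsewhere in the embryonic library 12 UMIs of Nkx2-5 lay in 5 cells. Neither postnatal library held a UMI of Nkx2-5, and Tlx1 had 1 and 0 UMIs there. Where these cells lay in the dissected tissue cannot be told from the library.

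**Figure D4:**
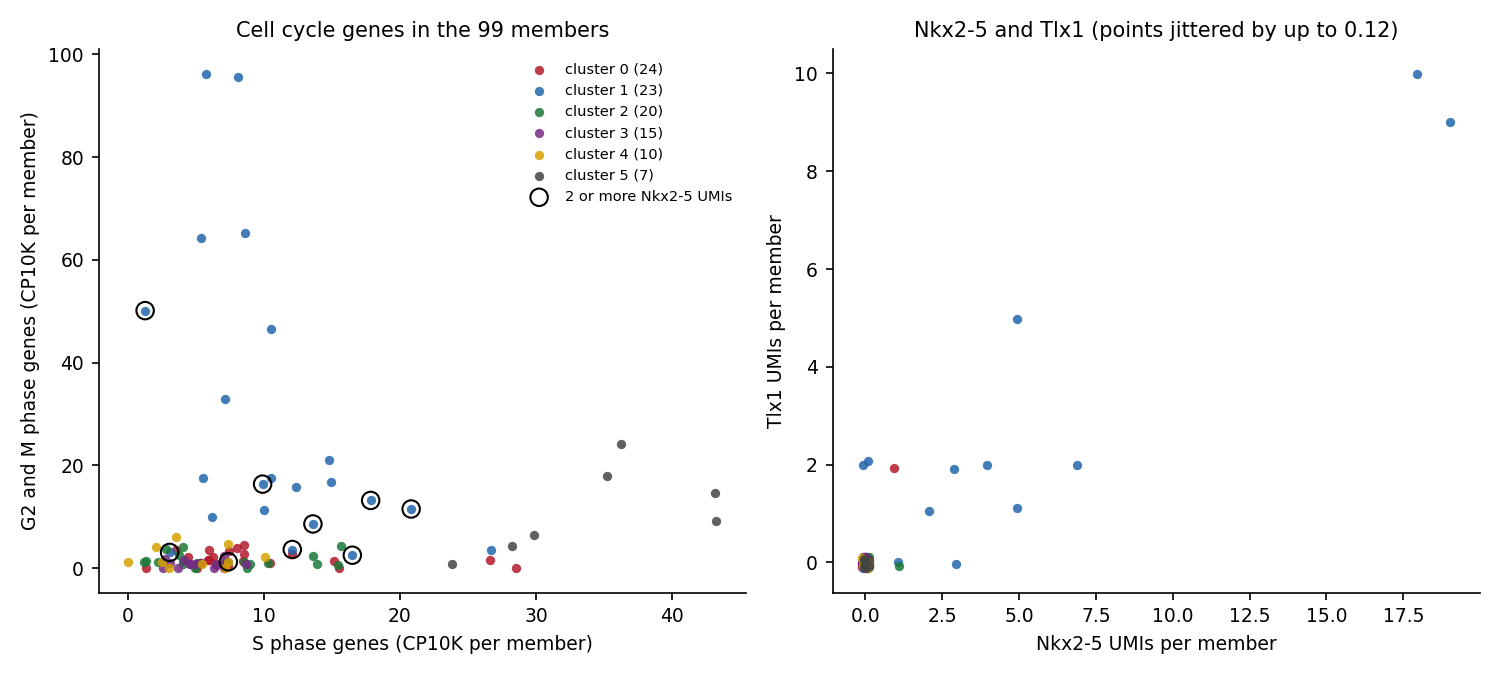
Left, summed level of S phase against G2 and M phase genes in each of the 99 members in CP10K, coloured by cluster, with circles around members holding at least 2 UMIs of Nkx2-5. Right, UMIs of Nkx2-5 against those of Tlx1 per member, shifted slightly at random so that cells at the same value can be seen; 8 of the 9 members with at least 2 UMIs of Nkx2-5 also held Tlx1.

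The members were last set beside the interstitial cells of the postnatal ovaries. The rule of the members found 126 cells at postnatal day 7 and 4 at day 14, where Ptn and Dlk1 stood at 38.8 and 18.4 CPM in the interstitial cells. Postnatal cells were chosen by Col1a2, Col3a1 and Dcn together at 10 CP10K or more and Amh and Inha under 3 CP10K, with the same exclusions. This gave 345 cells of 4620692 UMIs at day 7 and 391 cells of 5151869 UMIs at day 14. Applied to the embryo it gave 90 cells, 88 of them members. Against day 7, 195 genes were called higher in the fetal members and 289 lower of 12124, 1.61% and 2.38%; against day 14, 335 were higher and 300 lower of 12215, 2.74% and 2.46%. Median log2 ratios of all genes were -0.01 and 0.06. With the 90 embryonic cells chosen as the postnatal ones were, 195 and 349 genes were higher and 285 and 310 lower. Each age is 1 library, so age and library cannot be told apart. The postnatal choice did not leave out theca, smooth muscle or dividing cells. The sets may therefore differ in cell make-up, and its part in the differences below was not tested.

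A share of imprinted transcripts above that of all genes was higher in the fetal members. Of 22 compared with day 7, 8 were called higher in the fetal members and 0 lower, with a median of 0.71; of 21 compared with day 14, 12 were higher and 1 lower, with a median of 1.30. The list includes Dlk1. H19 went from 1648 CPM in members to 95.4 at day 7 and 6.21 at day 14, 17.3-fold (15.6 to 19.1) and 265-fold (188 to 389) higher in the fetal cells. Meg3 went from 2311 to 822 and 88.5 CPM, Rian from 162 to 35.3 and 5.05, Mest from 404 to 85.7 and 27.4, and Peg3 from 298 to 70.6 and 36.7. Dlk1, which was one of the genes that chose the fetal cells, went from 908 to 538 and 18.4 CPM. In the 218 other cells of the embryonic library H19 was at 1265, Mest at 392 and Peg3 at 314 CPM. The high fetal levels of these genes were thus not particular to the members. Meg3, Rian and Dlk1 were lower in those cells than in members, at 448, 51.4 and 115 CPM. In the 126 cells of day 7 chosen by the members' own rule, H19 was at 186, Meg3 at 1711 and Dlk1 at 1564 CPM, so the Meg3 difference at day 7 depended on how cells were chosen. With that choice 177 genes were higher and 350 lower in the members, of which 142 and 233 were also called with the other.

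Further genes with lower levels after birth are named by rank or as examples of the lists. Igfbp5 went from 1478 CPM to 298 and 148, 4.97-fold and 10.0-fold higher in the fetal members. Wnt5a went from 101 to 14.9 and 17.9 CPM, and Tgfb2 from 118 to 21.9 and 11.5. The surface glycoprotein Cd24a was at 462, 74.7 and 66.0 CPM, the potassium channel Kcnk3 at 95.7, 9.74 and 6.79, and Crabp1 at 67.1, 4.98 and 0.194. Car2, a carbonic anhydrase, was at 60.5, 4.33 and 0.776 CPM, but red blood cells also make it and it stood at 1309 CPM in the remaining embryonic cells. Its median was 0.278 CP10K in members and 0.475 in granulosa-gene cells, and 1 member held 30 of its 110 UMIs. It was thus not particular to the members. Maf was at 288, 72.3 and 60.6 CPM, Meis1 at 150, 42.4 and 32.0, and Emx2 at 61.6, 11.5 and 6.41. Of the G2 and M genes, 6 of 20 were called lower in the fetal members than at day 7, with a median of -0.77, and 0 were called at day 14.

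Tcf21, Nr2f2 and Pdgfra differed by less than 1.5 times between the fetal members and either postnatal set. Tcf21 was at 377, 374 and 449 CPM in the 3 sets, Nr2f2 at 273, 243 and 290, and Pdgfra at 174, 224 and 230. Interstitial matrix genes gave 1 higher and 8 lower of 42 against day 7, and 5 higher and 4 lower of 42 against day 14; Col1a2, Col3a1 and Dcn, in this list, chose the postnatal cells. Within that list Ogn (osteoglycin) went from 24.8 to 149 and 312 CPM and the elastic fibre gene Mfap5 from 5.50 to 141 and 122. Acta2 was higher after birth, at 353, 826 and 1596 CPM.

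Hedgehog targets were higher in the postnatal interstitial sets, from which theca cells were not removed. Ptch1 went from 12.7 CPM in members to 171 and 230, 13.5-fold and 18.2-fold above the fetal level, and Gli1 from 9.90 to 32.0 and 34.9. Hhip had 0 UMIs in the members and was at 51.3 and 69.9 CPM. Of 11 Hedgehog genes compared, 3 were called lower in the fetal cells at each postnatal age. Foxl2 went from 30.3 to 155 and 119 CPM, Igfbp7 from 151 to 1165 and 2237, Tmem100, a membrane protein known from vessels, from 2.20 to 118 and 392, and Actr3b from 3.85 to 189 and 219. The interferon-induced Bst2 was at 16.0, 192 and 371 CPM, and the chemokine Cxcl14 had 0 UMIs in members and stood at 23.2 and 281.

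Several of the largest age differences moved with other cells or with the library. The neutrophil genes Ngp and Camp were at 201 and 155 CPM at day 7, with 904 of 927 and 708 of 717 UMIs in 5 cells each. S100a8 was at 113 CPM in members, 662 at day 7 with 2973 of 3058 UMIs in 5 cells, and 0.194 at day 14. The heat shock gene Hspa1a was at 12.1, 379 and 523 CPM in the 3 interstitial sets and at 3.27, 219 and 235 in the other cells of the same libraries, so it was higher after birth in both. The part of dissociation in this was not tested.

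**Figure D5:**
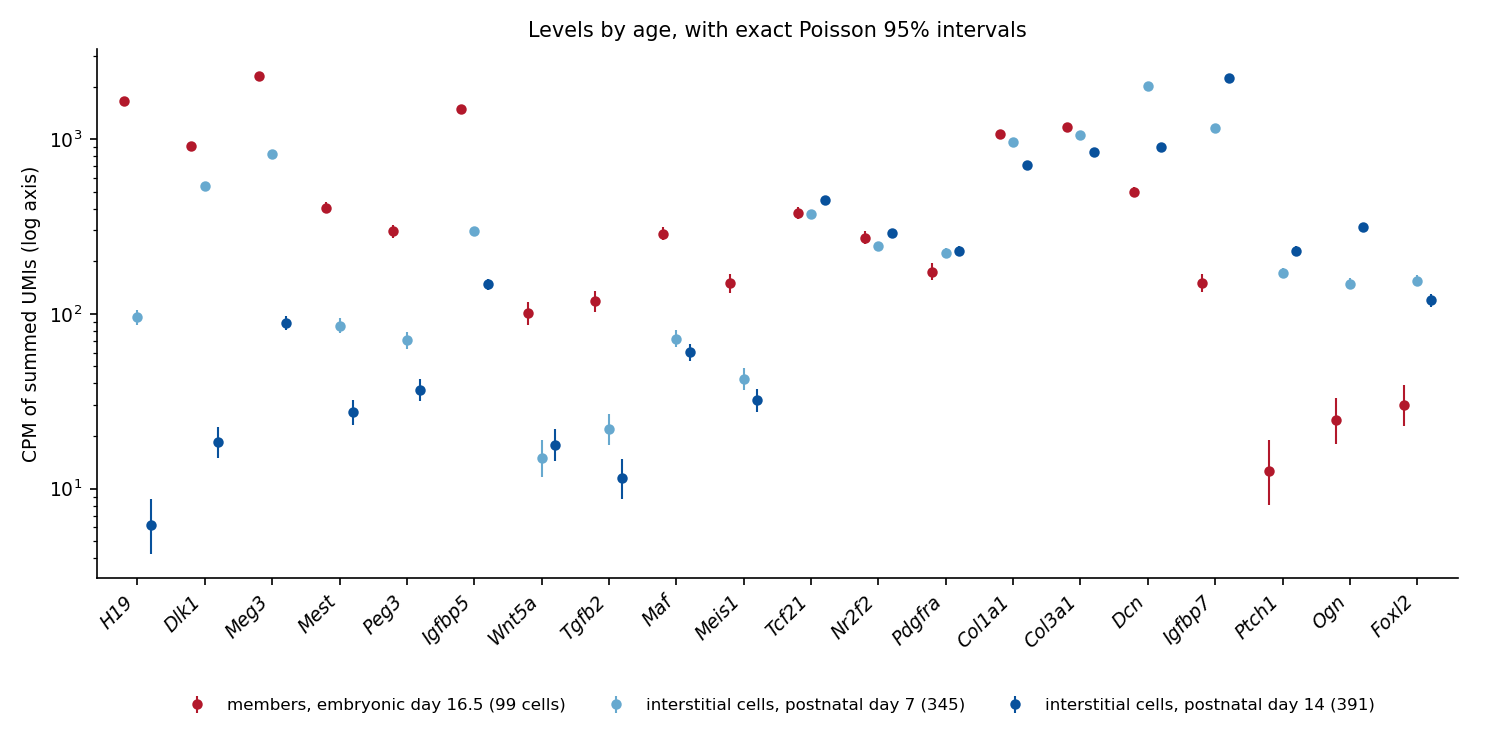
Summed level in CPM (logarithmic axis) of 20 genes in the 99 fetal members and in the interstitial cells of postnatal day 7 and day 14, with exact Poisson 95% intervals; 1 library per age. H19, Meg3 and Igfbp5 step down with age, Ptch1, Ogn and Igfbp7 step up, and Tcf21 stays between 374 and 449 CPM.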

How the data were processed

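Single-cell RNA was measured in 3 libraries. The authors deposited unnormalized UMI counts for each gene in each barcode, which Cell Ranger 2.1.1 made on GRCm38, per the submitters' processing notes. Neither the annotation counted on nor how barcodes were called cells is given in those notes. The tables list 53465 gene identifiers, of which 53274 matched GENCODE M21 without the version. Genes overlapping another on the same strand, among them Col3a1, Col1a2, Lama2, Robo2, Slit2, Ptch1, Fgfr2, Pdgfra, Meg3, Rian, Hoxd10, Itga6, Cdh11, Top2a, Islr and H19, can lose shared reads, so their levels are uncertain.

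Barcodes with at least 200 genes were kept. Cells were classed in the order haemoglobin, germ, endothelium, granulosa, members, remaining, and no doublet caller was run. UMIs were summed per class and library. Genes with at least 20 UMIs in both groups together were compared, and a call needed a 2-fold difference of CPM + 10. With 1 library per age no p-value was computed. Members and gene lists were chosen with earlier results of these data known. Named genes were the rule genes, the given markers, the 12 genes at each end of each embryonic comparison with at least 50 UMIs in the higher group and an interval of the ratio that excludes 1, the 6 at each end of each age comparison, and in each list the 2 highest, the 2 lowest and the most abundant; the further list members given as examples were chosen after their values were seen. A few genes that this rule names are not reported here. The ends skipped predicted genes, Xist and the genes of haemoglobin, mitochondria and ribosomal proteins. Cells were thinned at random to 5000 UMIs with seed 1, and 0 cells were shallower. Clusters of members came from 1000 variable genes, 10 principal components, 10 neighbours and the Leiden algorithm at resolution 0.8. The ratios were tested on simulated data. Python 3.11.15, numpy 2.4.6, scipy 1.17.1, pandas 2.3.3, scanpy 1.11.5, leidenalg 0.10.2 and matplotlib 3.10.9 were used. Alternatives were another pseudocount, scaling, filter, member threshold, member choice and depth limit, and leaving out classes or members.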

Additional observations from a re-analysis of the deposited data

How the results depend on the processing

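The population kept 62 of its 99 cells when the summed level had to reach 20 CP10K. Counts of called genes depended on the pseudocount. With 1 in place of 10, 1053 genes were higher and 2362 lower against the other cells, 750 and 1912 against granulosa-gene cells, 640 and 849 against postnatal day 7, and 906 and 845 against day 14. With 50 they were 164 and 129, 100 and 182, 30 and 69, and 73 and 79, all among the genes called with 10. With haemoglobin-rich cells among the other cells 901 were higher, and without haemoglobin, mitochondrial and ribosomal protein genes 321 were higher than at day 7. The direction turned in 2 named genes. Stra8 against the other cells had a log2 ratio of 0.0513 without the germ-gene cells. S100a8 against granulosa-gene cells had -0.00932 without the members with immune genes or Nkx2-5, a setting chosen after seeing the data. The 17 mixed granulosa-gene cells were also left out only after their values were seen. Without the members with immune genes or Nkx2-5 the numbers of interstitial matrix genes and transcription factors called against the other cells moved by less than 1.5 times. Over all settings, calls of named genes were lost in 66 cases against the other cells, 50 against granulosa-gene cells, 39 against day 7 and 23 against day 14. No paired analysis was possible because each group had 1 sample. A count of 0 UMIs in the members allows up to 1.65 CPM, which limits what can be said of rare transcripts.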
